A study of Rattus norvegicus with 40 samples.

Results

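The genes described here are known from the visual cycle, which recycles the chromophore of vision, from the pigment epithelium or from the melanosome. The 10 followed through 40 rat retinas were Rpe65, Lrat, Rdh5, Rgr, Ttr, Best1, Tyr, Tyrp1, Pmel and Mlana. They were chosen by name, as genes known from the retinal pigment epithelium and the melanosome, and were found by gene symbol among the 32883 gene rows of the deposited count table, 1 row each. All 10 had a mean of at least 10 counts over the retinas and so were among the 14914 genes tested.

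The study asked how anemia after blood removal bears on the retina of wild-type rat pups, with and without oxygen-induced retinopathy (OIR), a model of retinopathy of prematurity made with the Penn 50/10 protocol of alternating oxygen. Phlebotomy-induced anemia (PIA) was brought about by bleeding from the facial vein to a hematocrit of 18%, and pups that were not bled received a scruff prick that drew no blood. At postnatal day 15 there were 4 retinas each of OIR pups with PIA, OIR pups without PIA, room air pups with PIA and room air pups without PIA. At postnatal day 20 there were 8 retinas of OIR pups with PIA, 8 of OIR pups without PIA, 4 of room air pups with PIA and 4 of room air pups without PIA. RNA was taken from single whole retinas, and the labels give neither the strain nor the eye colour of the rats. The 40 count columns carry codes of a number and a letter, none of which matched a sample, so the columns were used as unlabelled retinas and no comparison of anemic with non-anemic pups, or of OIR with room air, was made. The code numbers without their last pair of digits form 8 code blocks, blocks 1 to 6 with 4 retinas each and blocks 9 and 10 with 8 each, and these blocks carry no group label.

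The pigment epithelium is a single sheet of cells behind the photoreceptors and is not part of the neural retina, from which it is usually peeled away or torn when a retina is taken out. Its visual cycle turns the spent all-trans chromophore of the photoreceptors back into the 11-cis form: LRAT makes the retinyl ester, RPE65 isomerises it and RDH5 oxidises the product. Its melanosomes, and those of the choroid, iris and ciliary body, make melanin with tyrosinase and the related TYRP1 on fibrils of PMEL. How much epithelium stayed on each retina is not given in the sources used here, and in bulk RNA fewer cells of a type and less RNA per cell cannot be told apart.

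The start regions of 5 members are printed because each carries at least 1 of a pair of short motifs looked for. The motifs were the core of the M-box, TCATGTG, which is bound by MITF, the pigment cell transcription factor, and the core bound by the OTX and CRX factors, TAATCC, each searched on both strands. The sequences are those of RefSeq on the rat build GRCr8, 250 bases before and 50 after the gene's start on the gene's own strand, and all 10 members matched the table by symbol. In capitals is the M-box core in Tyr, at chr1:150622808-150623107 on the minus strand, and in Mlana, at chr1:236882825-236883124 on the plus strand. In Tyrp1, at chr5:100326875-100327174 on the plus strand, the first capitals are the M-box core and the second the OTX and CRX core. In Rpe65, at chr2:251425118-251425417 on the plus strand, and in Rgr, at chr16:12836437-12836736 on the minus strand, the capitals are the OTX and CRX core.
Tyr: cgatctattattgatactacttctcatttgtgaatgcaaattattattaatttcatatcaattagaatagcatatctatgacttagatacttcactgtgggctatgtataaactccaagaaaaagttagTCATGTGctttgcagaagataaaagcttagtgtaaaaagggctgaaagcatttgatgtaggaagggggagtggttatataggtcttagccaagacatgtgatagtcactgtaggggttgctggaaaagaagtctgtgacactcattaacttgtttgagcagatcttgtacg
Tyrp1: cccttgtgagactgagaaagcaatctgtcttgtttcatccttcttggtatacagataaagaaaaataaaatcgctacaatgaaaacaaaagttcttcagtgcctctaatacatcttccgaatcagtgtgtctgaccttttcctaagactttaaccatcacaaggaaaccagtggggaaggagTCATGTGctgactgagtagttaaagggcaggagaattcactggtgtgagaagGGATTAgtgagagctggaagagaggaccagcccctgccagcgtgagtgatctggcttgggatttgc
Mlana: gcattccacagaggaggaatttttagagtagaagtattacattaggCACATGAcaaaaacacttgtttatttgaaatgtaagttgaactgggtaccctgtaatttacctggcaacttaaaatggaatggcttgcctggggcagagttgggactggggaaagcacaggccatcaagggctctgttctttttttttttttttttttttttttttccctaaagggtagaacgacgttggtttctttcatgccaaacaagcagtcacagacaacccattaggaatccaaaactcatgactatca
Rpe65: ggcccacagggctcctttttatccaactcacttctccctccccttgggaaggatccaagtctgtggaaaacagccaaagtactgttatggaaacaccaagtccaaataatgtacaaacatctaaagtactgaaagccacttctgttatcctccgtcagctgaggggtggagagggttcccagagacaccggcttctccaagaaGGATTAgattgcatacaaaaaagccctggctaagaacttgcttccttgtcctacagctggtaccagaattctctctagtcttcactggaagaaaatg
Rgr: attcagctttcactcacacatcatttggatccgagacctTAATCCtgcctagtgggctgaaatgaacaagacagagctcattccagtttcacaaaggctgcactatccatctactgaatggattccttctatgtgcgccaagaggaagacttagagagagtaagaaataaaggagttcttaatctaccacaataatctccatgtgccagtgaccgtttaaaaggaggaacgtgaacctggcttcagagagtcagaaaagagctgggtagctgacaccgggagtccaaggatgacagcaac

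The M-box core stood in 3 of the 10 member promoters, those of Tyr, Tyrp1 and Mlana, and in 3.56% of the 33469 promoters of the same length in the table. It began 121 bases before the start of Tyr (position -121), at -68 in Tyrp1 and, as its reverse complement, at -204 in Mlana. The OTX and CRX core stood in 3 of the 10, at -47 in Rpe65 and -16 in Tyrp1 as its reverse complement and at -211 in Rgr, and in 7.17% of all promoters. The letters of neither motif were found in the windows of Lrat, Rdh5, Ttr, Best1 and Pmel. A match describes the letters in the window and is not a measured binding site.

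The column totals lay between 8072840 and 24431979 counts, and levels are given as counts-per-million of the column total (CPM). Rod genes were high in every retina, the summed level of 7 rod genes lying between 16720 and 47430 CPM. RNA of tissues next to the retina was uneven. The summed level of 7 lens genes had a median of 225 CPM, a lowest value of 5.87 CPM in the retina coded 1001a and a highest value of 121900 CPM in the retina coded 421a. The retina coded 321b stood apart: 4 keratins of cornea and conjunctiva summed to 3991 CPM in it, against a median of 6.20 CPM over all retinas, and its sums of choroid and sclera genes (999 CPM, median 87.7) and of eye muscle genes (66.4 CPM, median 14.5) were the highest of the 40.

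The visual cycle genes were measured in every retina and varied more than most genes. Rpe65, the isomerase, had a lowest level of 9.43 CPM, a median of 37.3 CPM and a highest level of 209 CPM, a range of 22.2-fold. The lowest retina was 942b and the highest 321b, followed by 912a at 117 CPM. The standard deviation of its level on the scale of log2(CPM + 0.5) was 0.87, against a median of 0.25 over all genes tested, and 96.0% of the genes tested varied less.

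By code block, Rpe65 stood at 40.5, 42.5, 44.5 and 37.3 CPM in the retinas of block 1 and at 52.0, 17.2, 29.6 and 47.9 CPM in those of block 2. In block 3 it stood at 209, 32.4, 53.0 and 47.3 CPM, and in block 4 at 12.9, 76.3, 35.7 and 33.3 CPM. The 4 retinas of block 1 were close together, whereas those of blocks 2, 3 and 4 were farther apart. In block 5 the values were 14.0, 44.1, 40.8 and 38.7 CPM, and in block 6 they were 39.5, 49.4, 27.6 and 13.5 CPM. Block 9 ran from 9.43 CPM through a median of 23.8 to 117 CPM, and block 10 from 12.4 through 26.8 to 81.7 CPM. The ranges of all 28 pairs of blocks overlapped for Rpe65, and its standard deviation on the log2 scale was 0.88 within blocks, against 0.87 over all retinas.

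Lrat, which esterifies retinol, ran from 3.44 CPM in retina 942b through a median of 9.96 CPM to 53.0 CPM in retina 321b. Rgr, an opsin of the pigment epithelium and Müller glia that takes part in chromophore recycling, ran from 9.16 CPM in retina 513a through 32.9 to 290 CPM in retina 321b. Rdh5, the 11-cis retinol dehydrogenase, had the lowest level of 0.750 CPM in retina 942b, a median of 5.27 CPM and a highest level of 37.7 CPM in retina 321b. By block, Rdh5 stood at 3.93, 3.64, 4.60 and 4.53 CPM in block 1, at 37.7, 2.71, 6.62 and 8.70 CPM in block 3 and at 1.56, 20.2, 11.9 and 4.97 CPM in block 5, so that its retinas were close together in block 1 and far apart in the others. All of these, with Rpe65, had their highest level in retina 321b. Without it, the highest levels were 117 CPM for Rpe65 and 23.1 CPM for Lrat in retina 912a, 76.9 CPM for Rgr in retina 515a and 21.9 CPM for Rdh5 in retina 902a.

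Ttr encodes transthyretin, the carrier of thyroxine and of the retinol-binding protein complex, which the pigment epithelium secretes. Its level ran from 18.7 CPM in retina 513a through a median of 105 CPM to 751 CPM in retina 321b, and the next highest was 214 CPM in retina 912a. In block 6 it stood at 49.9, 85.8, 50.6 and 86.5 CPM, all below the retinas of blocks 1, 2 and 3, whose lowest values were 98.3, 99.1 and 93.0 CPM. These 3 pairs were the only ones of 28 with separate ranges for Ttr, and they were picked out after the values were seen. The share of separate pairs over all genes tested is not given here, for Ttr or any other member, so these counts have no background. Best1, a chloride channel of the basolateral membrane of the pigment epithelium, was near the limit of counting, with 5 to 26 counts a retina and 0.377 to 2.06 CPM. Its highest retina was 613a, and in 321b, the highest retina of Rpe65, Lrat, Rdh5, Rgr and Ttr, it stood at 0.419 CPM. Of the 28 pairs of blocks, 1 had separate ranges for Best1.

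**Figure D1:**
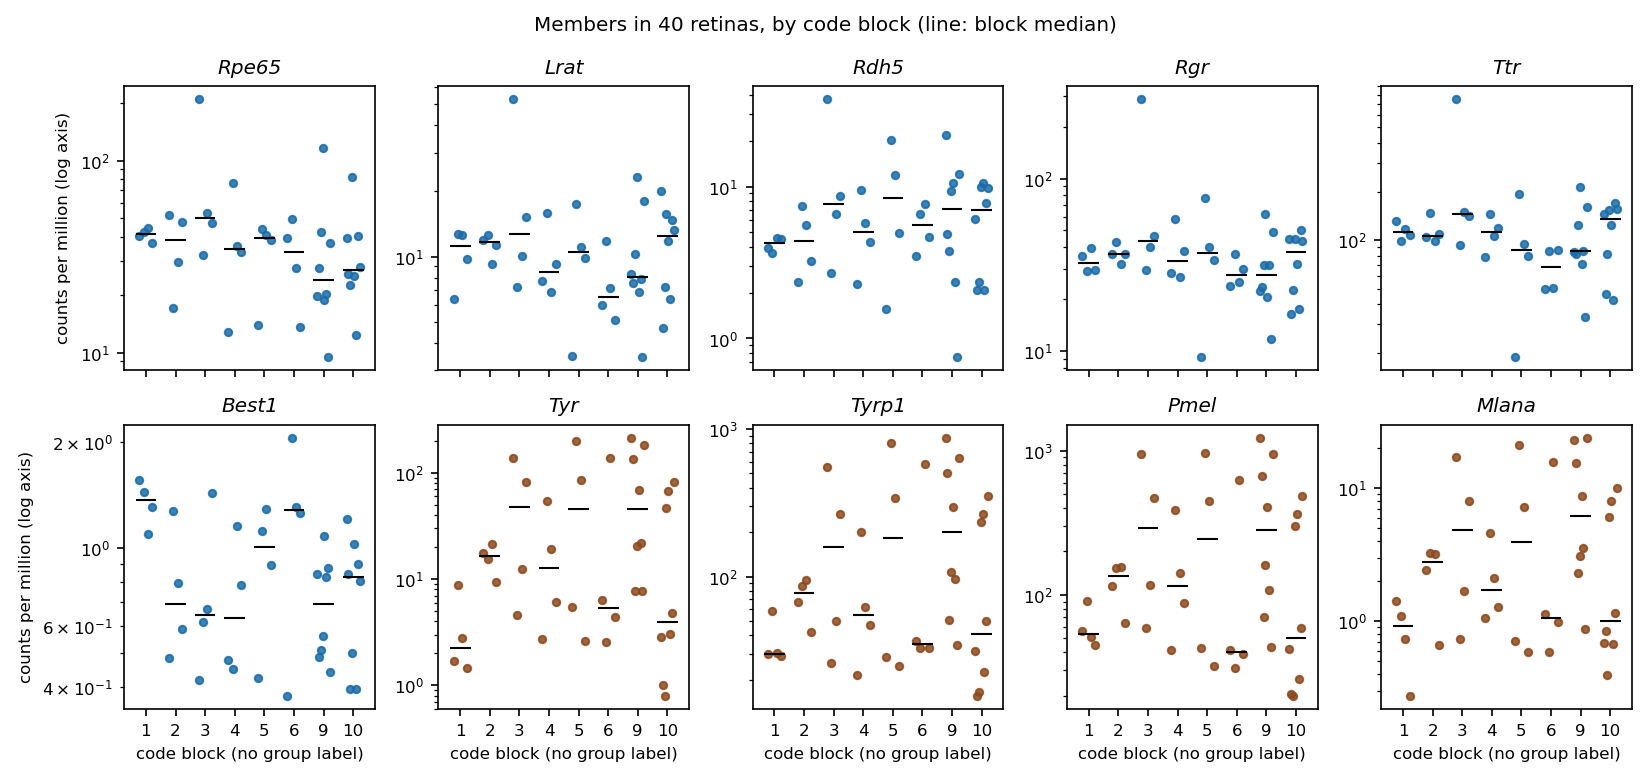
Level of each of the 10 genes in CPM (log axis) in each of 40 retinas, set out by code block, with a line at the block median; blue panels are genes of the visual cycle and epithelium, brown panels genes of the melanosome. Rpe65 runs from 9.43 to 209 CPM and Tyr from 0.790 to 215 CPM, and in blocks 9 and 10 the retinas spread over much of these ranges, while for Rpe65 those of block 1 lie between 37.3 and 44.5 CPM.

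The 4 melanosome genes had standard deviations between 1.5 and 2.21 on the log2(CPM + 0.5) scale, above those of the visual cycle genes and Ttr, which lay between 0.71 and 1.00, and of Best1, at 0.41. That of Best1 hung on the value added before the log, being 0.591 with 0.1 and 0.195 with 2 in place of 0.5. Tyr, which encodes tyrosinase, the first enzyme of melanin synthesis, ran from 0.790 CPM in retina 1004a (10 counts) through a median of 10.9 CPM to 215 CPM in retina 902a, a range of 272-fold. Its standard deviation was 2.21, and 99.8% of the genes tested varied less. Tyrp1, the tyrosinase-related protein that stabilises tyrosinase, ran from 15.5 CPM in retina 1002b through 54.7 to 873 CPM in retina 902a. Pmel, the protein of melanosome fibrils, ran from 19.9 CPM in retina 1004a through 100 to 1229 CPM in retina 902a. Mlana, a membrane protein of melanosomes, ran from 0.275 CPM in retina 117a through 1.92 to 23.9 CPM in retina 947a. Retinas 902a, 515a and 947a were among the 5 highest of all 40 for each of these 4 genes, and so was retina 321b.

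Tyr stood at 1.71, 8.72, 2.78 and 1.44 CPM in block 1 and at 17.4, 15.4, 21.4 and 9.37 CPM in block 2, the 1 pair of blocks with separate ranges for this gene. In block 3 it stood at 137, 4.56, 12.4 and 82.2 CPM, and in block 4 at 2.72, 54.2, 19.3 and 6.12 CPM. Retinas of both these blocks were thus spread over more than 10-fold. In block 5 it stood at 5.47, 199, 85.1 and 2.60 CPM, and in block 6 at 6.34, 2.55, 138 and 4.40 CPM, with 1 retina, 615a, far above the others. Block 9 ran from 7.64 through a median of 45.8 to 215 CPM, and block 10 from 0.790 through 3.91 to 82.5 CPM. Pmel had the same order of retinas as Tyr in block 5, at 42.8, 962, 444 and 32.3 CPM, and in block 6, at 41.7, 31.2, 629 and 38.8 CPM. For Tyrp1, Pmel and Mlana the ranges of all 28 pairs of blocks overlapped.

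Whether the members varied together was tested within code blocks, so that a difference between blocks could not give a correlation. For each pair, Pearson's r was taken over 40 retinas on log2(CPM + 0.5) after subtracting each block's mean. A gene is said to follow another where a two-sided permutation test, with 100000 permutations within blocks, gave a Benjamini-Hochberg adjusted p under 0.05 over the 14913 other genes tested. The smallest p these permutations can give is 1e-05. No source ties a column to an animal, so these p-values measure the spread between these retinas only.

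Lrat, Rgr and Ttr followed Rpe65, as did 0.127% of all genes tested (19 genes), the 3 members included. Lrat correlated with Rpe65 at r = 0.80 and Spearman's rho = 0.76, Rgr at r = 0.76 and rho = 0.73, and Ttr at r = 0.73 and rho = 0.69 (n = 40; permutation p = 1e-05 and adjusted p = 0.0124 for each r). Pooled over all retinas without regard to block, r was 0.79 for Lrat, 0.79 for Rgr and 0.75 for Ttr. Without retina 321b, r was 0.75, 0.71 and 0.67 in the same order, and all 3 genes followed Rpe65, with adjusted p of 0.0213, 0.0213 and 0.0331.
Without both 321b and 912a, the retinas farthest from the median of Rpe65 after centring on blocks, r was 0.70, 0.66 and 0.63, with permutation p of 1e-05, 3e-05 and 0.00014 and adjusted p of 0.0746, 0.107 and 0.163, so that none of the 3 passed the threshold over all genes. Within block 9 alone (n = 8, exact permutation test) r was 0.92, 0.91 and 0.93, and within block 10 alone 0.68, 0.73 and 0.72, none past the threshold after adjustment. The count of members that followed Rpe65 was 0 without block 9 and 1 without block 10.

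Among themselves, Rpe65, Lrat, Rgr and Ttr formed 6 pairs with r between 0.73 and 0.97 (rho between 0.69 and 0.95, pooled r between 0.75 and 0.95), the highest being Rgr with Ttr, and all 6 passed the threshold. Rdh5 correlated with Rpe65 at r = 0.56 and rho = 0.44 (n = 40, permutation p = 0.0025), which did not pass among the genes tested against Rpe65 (adjusted p = 0.495) and passed among those tested against Rdh5 (adjusted p = 0.0203). Without retina 321b this r was 0.48, and without 942b and 321b, the retinas farthest from the median of Rdh5 after centring on blocks, it was 0.38 (permutation p = 0.0457). Best1 did not follow Rpe65 (r = -0.15, rho = -0.16, permutation p = 0.425, adjusted p = 0.999, n = 40), and its r with the 9 other members lay between -0.15 and 0.26. None of these 9 pairs passed, the lowest permutation p with Best1 as the anchor being 0.132 before adjustment (Rdh5), and the mean of Best1 was 13.1 counts a retina.

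The 4 melanosome genes moved together from retina to retina. Tyrp1, Pmel and Mlana correlated with Tyr at r = 0.99, 0.99 and 0.96 and at rho = 0.98, 0.98 and 0.95 (n = 40; permutation p = 1e-05 and adjusted p = 0.00015 each), with pooled r of 0.98, 0.98 and 0.96. Without 615a and 1033a, the retinas farthest from the median of Tyr after centring on blocks, r was 0.98, 0.98 and 0.95. Within block 9 alone (n = 8, exact permutation test) r was 0.99, 0.99 and 0.98, with adjusted p of 0.0166, 0.0166 and 0.0193. Within block 10 alone (n = 8, exact permutation test) r was 0.99, 0.99 and 0.98, with adjusted p of 0.0356, 0.0347 and 0.0654, so that Mlana did not pass there. The 6 pairs of the 4 genes had r between 0.96 and 1.00, and all 6 passed. Against this stands a large background: 16.8% of all genes tested followed Tyr (2502 genes), and 0.315% were inversely related to it (47 genes).

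Correlations of the melanosome genes with Rpe65, Lrat, Rgr and Ttr were lower in value. These 4 are called the visual cycle set here, with Rdh5 left out and the carrier Ttr taken in. Over the 16 pairs between Rpe65, Lrat, Rgr and Ttr and the 4 melanosome genes, r lay between 0.30 and 0.54 and rho between 0.23 and 0.54, with pooled r between 0.21 and 0.48. None of the 16 passed after adjustment in the permutation test with the visual cycle gene as the anchor, where 12 had a p under 0.05 before adjustment. With the melanosome gene as the anchor 6 passed, those of Lrat, Rgr and Ttr with Tyrp1 and with Pmel. Of all genes tested, 17.5% followed Tyrp1 and 17.7% followed Pmel. Tyr with Rpe65 had r = 0.31 and rho = 0.29 (n = 40, permutation p = 0.082, adjusted p = 0.999), with pooled r = 0.23 and, within block 9, r = -0.01. Whether these r differ from those inside each set was not tested, and the 2 sets were named after the correlations were seen.

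Rdh5, itself a visual cycle gene, correlated with genes of both sets, least with Rpe65 (r = 0.56). It correlated with Tyr at r = 0.75 and rho = 0.79 (n = 40, permutation p = 1e-05, adjusted p = 0.00015 among the genes tested against Tyr) and at r = 0.77 without 615a and 1033a. Without retina 321b this r was 0.74, and it was 0.76 within block 9 and 0.85 within block 10 (n = 8 each, exact permutation test, adjusted p = 0.171 and 0.238). Its r with the 4 melanosome genes lay between 0.75 and 0.82 (pooled 0.71 to 0.79), and all 4 pairs passed. Its r with Rpe65, Lrat, Rgr and Ttr lay between 0.56 and 0.79 (pooled 0.54 to 0.72), and all 4 passed with Rdh5 as the anchor. As an anchor Rdh5 was followed by 15.9% of the genes tested, and Tyrp1, Pmel and Mlana by 17.5%, 17.7% and 17.8%, whereas Rgr was followed by 0.322%, Lrat by 0.355% and Ttr by 0.443%. Inversely related genes made up 0.201% for Rdh5, 0.503% for Tyrp1, 0.543% for Pmel, 1.39% for Mlana and 0.00671% for Lrat (1 gene).

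**Figure D2:**
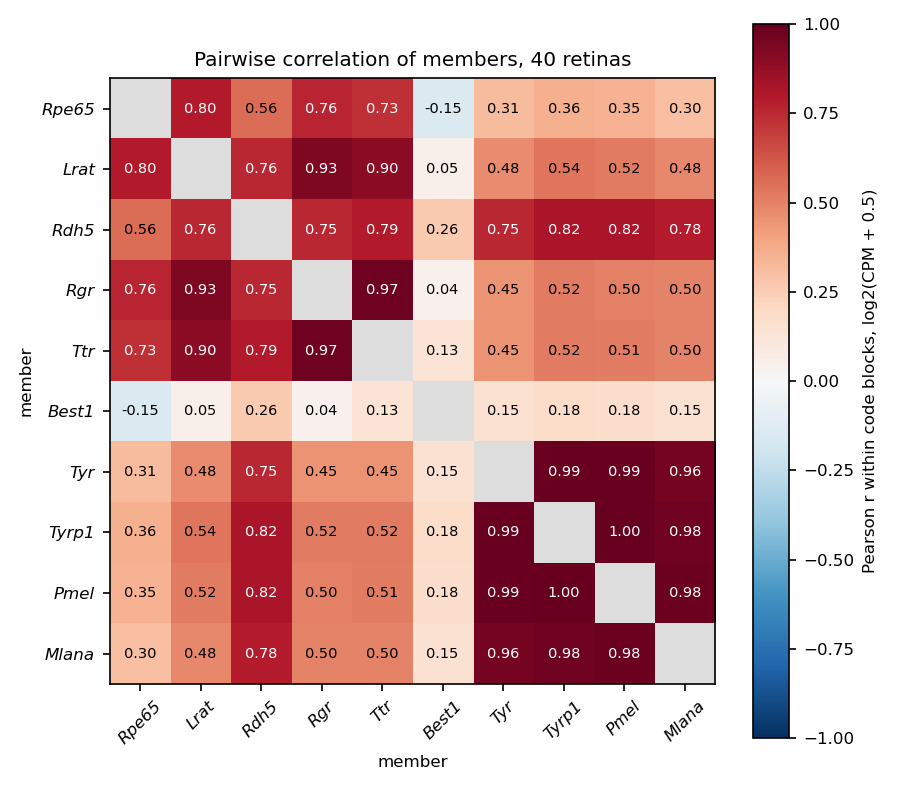
Pearson's r for each pair of the 10 genes over 40 retinas, from log2(CPM + 0.5) centred on code block means; colour and the printed number both give r, and grey marks a gene with itself. Tyr, Tyrp1, Pmel and Mlana form a block with r of 0.96 to 1.00, and Rpe65, Lrat, Rgr and Ttr one with r of 0.73 to 0.97. Rdh5 has r of 0.75 to 0.82 with the first block and of 0.56 to 0.79 with the second. Best1 has no r above 0.26.

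Single retinas differed in which of the sets was high. Retina 321b was among the 5 highest of 40 for all 4 genes of both sets, with 751 CPM of Ttr and 137 CPM of Tyr. Retina 515a was among the 5 highest for 3 genes of the visual cycle set and all 4 melanosome genes. For retina 947a these counts were 2 and 4. Retina 912a was among the 5 highest for Rpe65, Lrat, Rgr and Ttr and for none of the 4 melanosome genes, with 214 CPM of Ttr and 20.7 CPM of Tyr. Retina 902a was the other way round, among the 5 highest for none of Rpe65, Lrat, Rgr and Ttr and for all 4 melanosome genes. It held 84.7 CPM of Ttr and 215 CPM of Tyr. The ratio of Tyr to Ttr ran from 0.00961 in retina 1004a to 2.73 in retina 615a.

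**Figure D3:**
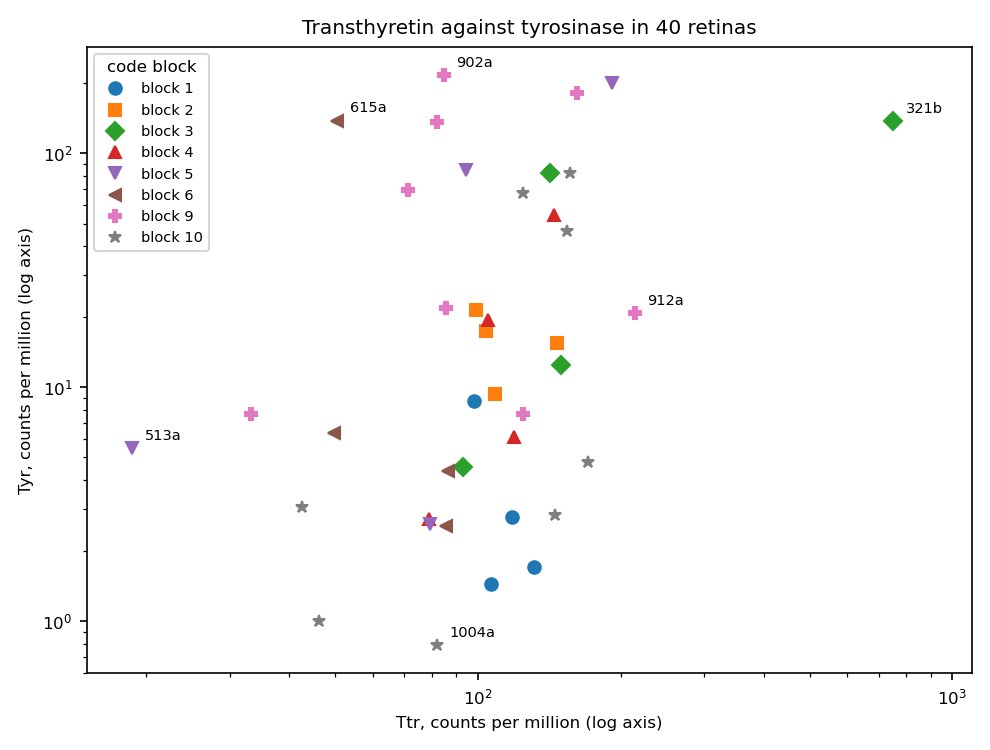
Level of Ttr against level of Tyr in each of 40 retinas, both in CPM on log axes, with the code block shown by marker and colour. Retinas with about 80 CPM of Ttr span nearly the whole range of Tyr, from 0.790 CPM in retina 1004a to 215 CPM in retina 902a, and retina 321b is at the top for Ttr at 751 CPM.

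Besides Lrat, Rgr and Ttr, 16 genes followed Rpe65. Among the 15 other genes with the highest r were Slc16a8, Nog, Ddah1, Slc7a10, Ermn, Pon1, Myrf, Rsph10b, Rdh10, Col8a1, Cltrn, Slco1a2, Myrip and Slc39a4. Slc16a8, the lactate transporter MCT3 of the basolateral face of the pigment epithelium, had r = 0.79 and rho = 0.73 (n = 40, permutation test, adjusted p = 0.0124) and ran from 2.37 through 9.31 to 49.4 CPM.
Rdh10, a retinol dehydrogenase, had r = 0.71, and Myrip, which links melanosomes and other vesicles to myosin VIIa, had r = 0.69. Ddah1, which breaks down an inhibitor of nitric oxide synthase, had r = 0.77 and ran from 59.5 to 193 CPM. Nog, an antagonist of bone morphogenetic proteins, had r = 0.78 and Myrf, a transcription factor best known from myelin, r = 0.76. Col8a1, a collagen of Bruch's membrane and the cornea, had r = 0.70 and Pon1, a lipoprotein-bound esterase, r = 0.76. The last of the 15, the zinc transporter Slc39a4, did not pass (r = 0.69, adjusted p = 0.0648), while Tdrd5 and LOC100910308, outside the 15, did, with r of 0.68 each. No gene was inversely related to Rpe65 by the permutation test after adjustment. Before adjustment, at a p under 0.05, 52 were with column totals, 498 with TMM scaling and 481 with median-of-ratios size factors.

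The count of genes that followed Rpe65 depended on few retinas. It was 10 without retina 321b, all of them among the 19, and 3 without both 321b and 912a. Without block 9 it was 3, without block 10 it was 8, without block 3 it was 9, without block 5 it was 12 and without block 6 it was 31.

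Of the 2502 genes that followed Tyr, 4 also followed Rpe65, which is 21.1% of the 19 and 0.16% of the 2502: Rsph10b, Rdh10, Myrf and Col8a1. Of all genes tested 16.8% followed Tyr and 0.127% followed Rpe65, so these shares are near the background. The genes highest with Tyr outside the 10, picked after their values were seen, were Slc24a5, an ion exchanger of melanosomes, with r = 0.99 and rho = 0.98 (n = 40, permutation test, adjusted p = 0.00015), Tspan10 with r = 0.99, Gpnmb, a glycoprotein of melanosomes and macrophages, with r = 0.98, and Mfrp, a frizzled-related protein of pigment and ciliary epithelium, with r = 0.98. Gpnmb ran from 2.45 through a median of 21.2 to 389 CPM and Mfrp from 11.9 through 43.1 to 320 CPM.
The inverse side of Tyr hung on the scaling. With TMM scaling 2322 genes followed Tyr and 1795 were inversely related to it, and with median-of-ratios size factors 2310 and 1964, against 2502 and 47 with column totals. TMM took the effective total of retina 421a to 15021778, against a column total of 20924391.

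Gene lists of the neighbouring tissues were set against both anchors, without the 10 members. Of 16 other genes of the pigment epithelium, 1 followed Rpe65, Slc16a8, and 11 followed Tyr, with median r of 0.30 and 0.73. Over all genes tested the median r was 0.10 with Rpe65 and 0.06 with Tyr. Rlbp1, the retinaldehyde-binding protein, which Müller glia share with the epithelium, followed neither (r = 0.41 with Rpe65, adjusted p = 0.999; r = -0.06 with Tyr, adjusted p = 0.901). Mitf, the transcription factor of pigment cells, followed Tyr with r = 0.92 and ran from 6.16 to 54.5 CPM, and its r with Rpe65 was 0.30. Stra6, the retinol uptake receptor, followed Tyr with r = 0.84 (adjusted p = 0.00015) and had r = 0.59 with Rpe65 (adjusted p = 0.196). Otx2, a transcription factor of the epithelium and of photoreceptors, followed neither. It had a lowest level of 0 and a median of 0.353 CPM, near the limit of counting, which limits its test.

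Of the 6 other melanosome genes, none followed Rpe65 and all 6 followed Tyr, with median r of 0.30 and 0.96. Among them, Mlph, an adaptor of melanosome transport, had r = 0.95 with Tyr. Of the 12 other genes of the visual cycle, Rdh10 followed Rpe65, while Rdh10, Stra6, Rbp4 and Dhrs3 followed Tyr. The median r of these 12 was 0.14 with Rpe65 and 0.09 with Tyr. Of their photoreceptor members, Abca4, the retinaldehyde flippase of outer segments, ran from 744 to 1588 CPM, Rbp3, the retinoid carrier between photoreceptors and epithelium, from 1150 to 2440 CPM, and the retinol dehydrogenases Rdh8 from 23.9 to 112 CPM, Rdh11 from 104 to 362 CPM and Rdh12 from 32.1 to 109 CPM. They followed neither.

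Markers of tissue outside the epithelium moved with Tyr as well. All 6 tested genes of choroid and sclera followed Tyr, with a median r of 0.92, among them Col1a1 with r = 0.94, Col3a1 with r = 0.92 and Dcn, the collagen-binding proteoglycan decorin, with r = 0.96. Fmod had the lowest r of the 6, at 0.75. Dcn was at 0 counts in the lowest retina and had a median of 1.05 CPM and a highest level of 271 CPM. None of the 6 followed Rpe65 (median r = 0.29, and 0.19 without retina 321b). The sum of these 6 genes ran from 28.2 CPM through 87.7 to 999 CPM and was 987 CPM in retina 902a, 714 CPM in retina 515a, 600 CPM in retina 615a and 93.2 CPM in retina 912a.
Of 6 genes of ciliary body and iris, 5 followed Tyr (median r of the 6 = 0.53), and none followed Rpe65. The 5 had r with Tyr of 0.91 (Aqp1, a water channel), 0.71 (Zic1), 0.54 (Best2), 0.51 (Wfdc1) and 0.44 (Optc). The sixth, Cyp1b1, had r = -0.34 with Tyr (adjusted p = 0.144). Their sum ran from 60.1 CPM in retina 1004a, the lowest retina for Tyr, to 646 CPM in retina 902a, the highest. Of 4 eye muscle genes, Ckm, Acta1 and Tnnt3 followed Tyr, and none followed Rpe65 (median r = 0.37, and 0.15 without retina 321b). Tnnt3 had a lowest level of 0 and a median of 0.256 CPM, near the limit of counting.

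Of 7 lens genes and 4 keratins of cornea and conjunctiva, none followed either anchor. The keratins' median r was 0.46 with Rpe65 and 0.26 with Tyr, and their sum was highest in retina 321b. Without that retina these medians were 0.26 and 0.14. None of the 7 Müller glia genes and none of the 7 rod genes followed either anchor, with median r of 0.17 and 0.02 with Rpe65 and -0.11 and -0.18 with Tyr. With column totals no gene of any of the 10 lists was inversely related to Rpe65 or Tyr. With TMM scaling 4 of the 7 rod genes, 2 of the 7 Müller glia genes and 1 gene each of the visual cycle and the ciliary body and iris lists were inversely related to Tyr, and with size factors 5, 2, 1 and 1. The median r of the rod genes with Tyr was -0.42 with TMM and -0.44 with size factors, and that of all genes tested -0.08 and -0.09. The counts of list genes that followed Tyr or Rpe65 were the same under both scalings. Without retina 321b the counts with Tyr were the same for all 10 lists, and with Rpe65 the count for the other visual cycle genes was 0, against 1 with it. Levels of all 6 choroid and sclera genes and of 5 of the 6 ciliary body and iris genes thus moved with Tyr from retina to retina, and their part in the levels of the 10 genes was not tested.

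**Figure D4:**
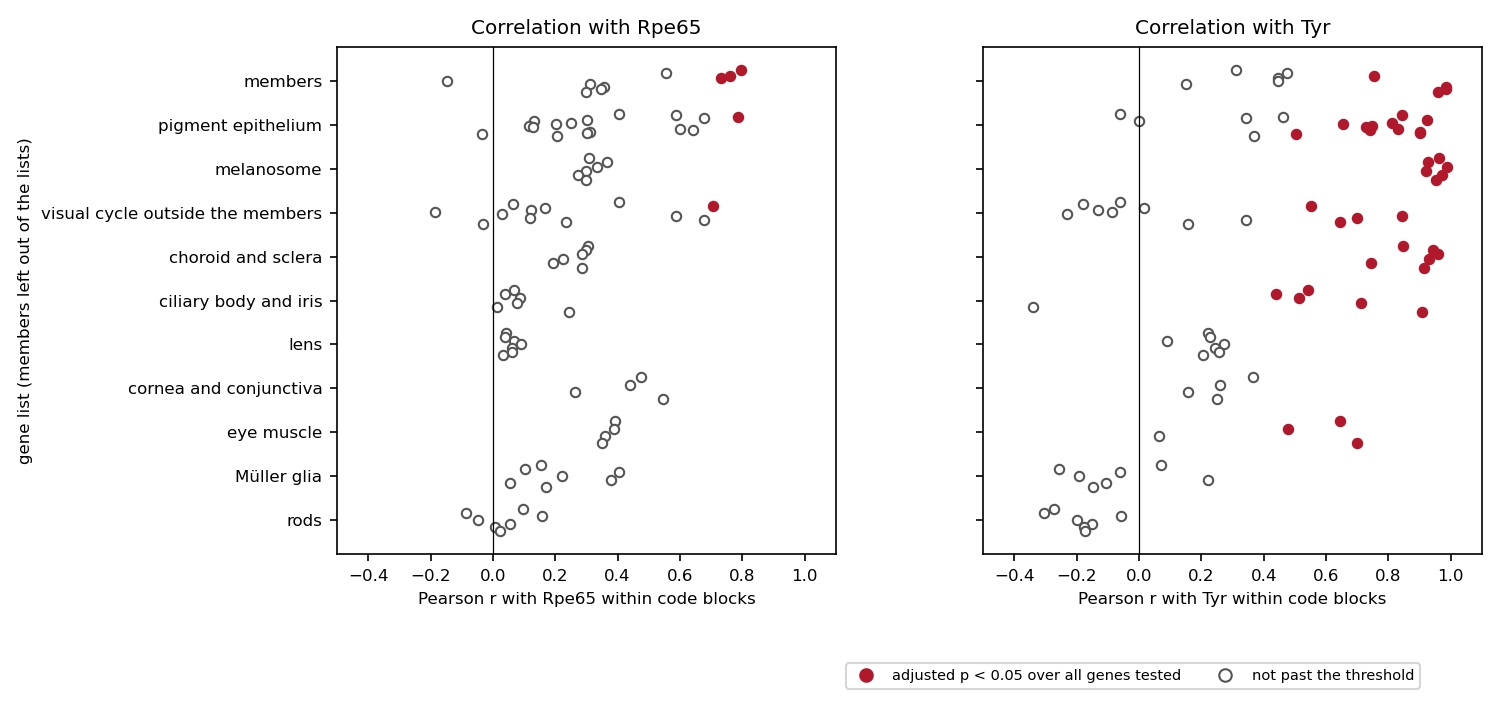
Pearson's r with Rpe65 (left) and with Tyr (right) over 40 retinas within code blocks, 1 point a gene, for the 10 genes and for the gene lists without them; filled red points passed an adjusted p under 0.05 over all genes tested. With Rpe65 the filled points are Lrat, Rgr and Ttr, Slc16a8 and Rdh10, and with Tyr all 6 melanosome and all 6 choroid and sclera genes are filled.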

How the data were processed

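RNA of single whole rat retinas was sequenced from stranded mRNA libraries, per the labels' protocols. HISAT2, edgeR and the rat build Rnor_6.0 are named in the submitters' processing notes, and the counting program, annotation and strand setting are not given in the sources used here. The deposited values are whole-number read counts in 1 table of 32883 gene rows and 40 count columns, which the authors left without normalization. None of the 40 column codes matched a sample label, so all 40 columns were used as unlabelled retinas, the planned edgeR test of study groups was not run, and code blocks were compared by ranges only.

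Counts were divided by column totals (8072840 to 24431979) to give counts-per-million (CPM). No gene length was used, so the sums over lists and the ratio of Tyr to Ttr serve to compare retinas and not the levels of genes. Correlations used log2(CPM + 0.5) centred on code blocks, genes with a mean of at least 10 counts, and 100000 permutations within blocks with Benjamini-Hochberg adjustment, with Python 3.11.15, numpy 2.4.6, pandas 2.3.3 and scipy 1.17.1. The code was tested on simulated data. Alternatives changed the scaling (edgeR 4.0.16 TMM, DESeq2 1.42.0 size factors, R 4.3.3), the pseudocount, the filter, the correlation and the retinas used. Tyr as a further anchor, retina 321b left out and centring on the range of library indices in the column codes as well were added after seeing the data. The text names the 10 members, the 15 other genes with the highest correlation with Rpe65, and up to 4 of the most abundant genes of each list, and says where a gene was picked otherwise; 1 of the 15 is not reported here. Some list genes are named as markers of their tissue (Mitf, Stra6, Otx2, Rdh8, Rdh12, Rbp4, Dhrs3 among them), after their values were seen. Members and lists were chosen with earlier results of these data known. Of the listed genes, Dct, Col1a2, Myh1 and Prph2 were not used here, and Kera, Ogn and Msx1 were under the count minimum. Promoters are RefSeq's on GRCr8, a different build from that of the counts.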

Additional observations from a re-analysis of the deposited data

Results flagged for a closer look

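In each code block the distance of the highest and the lowest retina to its nearest neighbour was set against the block's whole range on the log2(CPM + 0.5) scale. Of 80 combinations of gene and block, 5 held a retina farther out than the 95% limit of Dixon's test, and chance alone flags about 1 in 20. Rpe65 stood at 14.0 CPM in retina 513a, below the 38.7 to 44.1 CPM of the other retinas of block 5. Retina 615a stood above the other 3 retinas of block 6 for Tyrp1 (578 CPM, others 32.7 to 36.7), Pmel (629 CPM, others 31.2 to 41.7) and Mlana (15.6 CPM, others 0.59 to 1.13). Tyrp1 stood at 58.1 CPM in retina 115a, above the 28.8 to 30.2 CPM of the others of block 1. Tyr, at 138 CPM in retina 615a and at most 6.34 CPM in the others of block 6, did not pass this limit.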

How the results depend on the processing

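For the correlations of single members, 350 alternative values kept their direction and side of the threshold, 18 lost the threshold, 3 gained it and 5 changed sign. The kept values include correlations that passed in neither setting. Most of the losses fell on Lrat, Rgr and Ttr with Rpe65, and the rest on Rdh5 and Mlana with Tyr. The 19 genes that followed Rpe65 became 30 pooled over blocks, 11 with a mean count of at least 50, 3 without retinas 912a and 321b, 10 without 321b, and 0 within block 9 or block 10 alone, where 8 retinas limit the test. Leaving out 1 block at a time gave 3 to 31. The 3 members that followed Rpe65 became 0 without 912a and 321b and within block 9 or block 10 alone, and 0 to 3 with 1 block left out. TMM scaling gave 17 genes and 3 members, and size factors 18 and 3.

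The 2502 genes that followed Tyr became 651 within block 9, 103 within block 10 and 1838 to 2694 with 1 block left out. The 4 members became 5 with TMM and with size factors (Lrat added), 3 within block 9 (without Rdh5), 2 within block 10 (without Rdh5 and Mlana), and 4 to 5 with 1 block left out. The 47 inverse genes became 151 pooled, 1795 with TMM, 1964 with size factors, 74 with Spearman's rho, 23 without 615a and 1033a, 22 without 321b, 84 within block 9, 4 within block 10, and 12 to 211 with 1 block left out. Signs changed for Tyr with Rpe65 within block 9 (r = -0.014, with either as the anchor), for Best1 with Rpe65 within block 10 (r = 0.25), and for Best1 with Tyr pooled (r = -0.060) and within block 9 (r = -0.093). Within blocks 9 and 10 fewer retinas entered the test. For the others the cause was not tested.

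No paired analysis was possible because the codes of the count columns matched no sample, and so no replicate number. Best1, with 5 to 26 counts a retina, is limited by depth.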

Other observations

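The genes most inversely related to Tyr with column totals were Apom, the apolipoprotein that carries sphingosine 1-phosphate, with r = -0.62 (n = 40, permutation test, adjusted p = 0.00508), Tmprss7 with r = -0.58, Coro2b with r = -0.54, Ndrg1, a gene raised by low oxygen, with r = -0.54, and Cdhr2 with r = -0.54. They were picked after their values were seen. Apom ran from 0.867 through a median of 2.32 to 3.79 CPM, and Ndrg1 from 612 through 821 to 1472 CPM.

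Further genes that followed Tyr were the leucine-rich repeat protein Islr (r = 0.97, 0.316 to 37.8 CPM), the iron reductase Cybrd1 (r = 0.97, 1.15 to 30.9 CPM), the growth factor midkine, Mdk (r = 0.97, 13.9 to 156 CPM), and C1qtnf5 (r = 0.96, 2.92 to 48.6 CPM). The gene with the most negative r with Rpe65 was the fructose transporter Slc2a5 (r = -0.59, adjusted p = 0.196 by the permutation test, n = 40), which did not pass.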
